A study of Mus musculus with 10 samples.

Results

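The neurotrophins and their receptors were followed in periotic tissue of mouse embryos with and without Tbx1 in the mesoderm. The set held 5 genes by symbol: Bdnf and Ntf3, which encode secreted neurotrophins, Ntrk2 and Ntrk3, which encode the receptor tyrosine kinases TrkB and TrkC, and Ngfr, which encodes the low-affinity receptor p75. The platform annotation named 1 probe set each for Bdnf, Ntrk2, Ntrk3 and Ngfr. So 4 of the 5 genes were read, out of 19938 genes in all, and the signal of Ntf3 was not analysed here. All 4 read above background in all 10 arrays, where background is the highest log2 signal of Y-linked probe sets in female embryos, 4.36. Most genes pass this level: 17212 of the 19938 read above it in 5 or more arrays.

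The mutants were 5 embryos at embryonic day 12.5 with a conditional knockout of Tbx1, a T-box transcription factor, driven by T-Cre. The controls were 5 embryos of the same age that were T-Cre conditional heterozygotes for Tbx1, so both groups carried the recombinase and the controls are not wild type at Tbx1. T-Cre uses regulatory sequence of the T gene and acts in early mesoderm. The otic epithelium and its neurons are of other origin, and the state of their Tbx1 alleles is not given in the labels. Each array held pooled left and right tissue of 1 embryo, the otic vesicle with the mesenchyme around it, measured on Affymetrix Mouse Gene ST 1.0 chips.

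Neurotrophins are made as precursors, cut by proprotein convertases and released, and they act on Trk receptors that send survival and growth signals. BDNF binds TrkB, NT-3 binds mainly TrkC, and p75 binds every neurotrophin and can act with Trk or with sortilin-family receptors. In the mouse inner ear the sensory epithelium makes BDNF and NT-3, and the neurons of the cochleovestibular ganglion carry TrkB and TrkC and need them to survive. Ngfr is also a marker of neural crest cells and early Schwann cells.

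Bdnf transcripts start at several places, and a probe set that reads 1 value per gene cannot tell them apart. RefSeq windows of 250 bases before to 50 after an annotated start (GRCm38.p6) were matched for 4 of the 5 genes: Bdnf, Ntf3, Ntrk2 and Ngfr. Ntrk3 had no window. There were 11 windows in all, of which 7 belong to Bdnf. The windows below show a pair of the Bdnf starts that the single Bdnf value pools, and the start of each receptor gene with a window. Capitals mark the cyclic AMP response element (CRE) half-site TGACG and the GC box GGGCGG, each searched on both strands.
Bdnf window 2 (chr2:109676782-109677081, plus strand): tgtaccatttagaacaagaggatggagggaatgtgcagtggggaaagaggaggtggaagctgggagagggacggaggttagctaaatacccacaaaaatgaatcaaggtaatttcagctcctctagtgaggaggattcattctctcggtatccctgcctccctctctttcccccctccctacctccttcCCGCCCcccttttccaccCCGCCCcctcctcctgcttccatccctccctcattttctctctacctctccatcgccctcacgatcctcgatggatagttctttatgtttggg
Bdnf window 3 (chr2:109692186-109692485, plus strand): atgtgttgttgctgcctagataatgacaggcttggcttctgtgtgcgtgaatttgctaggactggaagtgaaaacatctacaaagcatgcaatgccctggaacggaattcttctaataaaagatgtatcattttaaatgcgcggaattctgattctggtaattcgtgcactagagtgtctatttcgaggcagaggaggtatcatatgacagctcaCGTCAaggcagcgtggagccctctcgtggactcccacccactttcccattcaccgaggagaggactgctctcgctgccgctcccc
Ntrk2 (chr13:58806319-58806618, plus strand): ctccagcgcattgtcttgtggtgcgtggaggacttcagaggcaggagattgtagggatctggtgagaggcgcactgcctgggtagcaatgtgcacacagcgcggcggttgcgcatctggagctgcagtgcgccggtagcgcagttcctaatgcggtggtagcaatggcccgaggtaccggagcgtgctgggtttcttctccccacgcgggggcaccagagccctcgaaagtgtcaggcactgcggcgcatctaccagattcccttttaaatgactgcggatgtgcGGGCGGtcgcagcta
Ngfr (chr11:95587649-95587948, minus strand): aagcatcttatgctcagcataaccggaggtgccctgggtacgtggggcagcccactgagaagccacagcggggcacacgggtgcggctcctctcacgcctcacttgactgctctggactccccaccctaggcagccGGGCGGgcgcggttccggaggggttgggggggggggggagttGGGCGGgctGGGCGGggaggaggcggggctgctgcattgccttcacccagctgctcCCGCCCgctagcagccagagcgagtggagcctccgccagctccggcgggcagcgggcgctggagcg
Bdnf window 3 was the 1 window of the 11 that held the half-site, with its first base at position -35 from the start, and 20.8% of all 32851 windows of that length held one. GC boxes stood in 6 of the 11 windows, against 35.7% of all windows. The Ngfr window alone held 4 boxes, and its GC content was 71.7%, against a median of 52.7% over all windows. The full element TGACGTCA was in 0 of the 11 windows and in 1.8% of all windows, and CAGATG, a motif bound by neuronal bHLH factors, was in 3 of the 11 and in 17.2%. The half-site is contained in the full element. These matches describe letters and are not shown to be binding sites.

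The arrays were first checked for the targeted gene and for tissue markers. Tbx1 read 8.40, 7.96, 7.58, 7.63 and 7.58 in mutants 1 to 5, against 8.89, 9.01, 8.84, 8.23 and 8.59 in controls 1 to 5 (exact two-sided permutation p = 0.0159; limma adjusted p = 0.451). Where the Tbx1 probes lie relative to the deleted sequence is not known here. All 15 markers of otic vesicle epithelium and all 14 of periotic mesenchyme that were measured read above background in every array. Fos, an immediate early gene, split the arrays by number and not by genotype, at 5.49 to 5.91 for numbers 4 and 5 against 8.82 to 9.08 for numbers 1 to 3. The hindbrain gene En2 read 8.81 in mutant 5 and 7.05 in control 4, against 4.17 to 4.74 in the other mutants and 4.68 to 5.12 in the other controls. By sex-linked transcripts, 1 of the mutants and 2 of the controls were male.

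None of the 4 genes passed the threshold between mutants and controls. By limma with Benjamini-Hochberg adjustment over all probe sets, 0 of the 4 had an adjusted p under 0.05, and 0 of the 4 had an unadjusted p under 0.05. That fit leaves the embryo numbers out. With the number as a block, the unadjusted limma p of Ntrk3 was 0.0421 and its adjusted p 0.476, and the other 3 genes stayed above 0.05 unadjusted. Without the block, across all genes 2 passed (0.0100%) and 1559 had an unadjusted p under 0.05 (7.82%). The groups overlapped for each of the 4, and across all genes they did not overlap for 1.83%. The TrkB and TrkC genes had higher means in the mutants, and Bdnf and Ngfr had lower ones. Tissue was measured in bulk, so fewer cells of a type and less RNA per cell cannot be told apart.

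Bdnf, the measured ligand, was a little lower in each mutant than in the control of the same number. Its log2 signal (probe set 10474399) was 6.47, 6.23, 6.32, 6.09 and 6.19 in mutants 1 to 5, against 6.55, 6.34, 6.46, 6.12 and 6.30 in controls 1 to 5. The groups overlapped widely, and the order of the numbers from high to low was 1, 3, 2, 5 and 4 in mutants and controls alike. The means were 6.26 ± 0.14 in the mutants and 6.35 ± 0.16 in the controls (SD, n = 5 each). The mutants differed by -0.09 on the log2 scale (SE 0.10, 95% interval -0.30 to 0.12), and the limma adjusted p was 0.819. On the linear scale the mutants stood at 93.9% of the control signal, with an interval of 81.3 to 108.4%. The exact two-sided permutation p of the unpaired arrays was 0.349.

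Within pairs of the same number the Bdnf differences were -0.08, -0.11, -0.13, -0.03 and -0.11 for numbers 1 to 5. All 5 were negative, and 4.88% of all genes were lower in the mutant of all 5 pairs. With the number as a block in limma, the Bdnf difference of -0.09 had an SE of 0.07 and an interval of -0.25 to 0.07. Its unadjusted limma p was then 0.234 and its adjusted p 0.695. Limma draws this SE partly from genes of similar signal, so it is not the spread of the 5 paired differences. What same-numbered embryos share is not given in the labels.

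Bdnf also differed with the array number in the same direction as Fos. It read 6.09 to 6.30 in the 4 arrays of numbers 4 and 5, against 6.23 to 6.55 in the 6 of numbers 1 to 3, a difference of means of -0.22. The ranges overlapped. Bdnf was not alone in this: the same difference of means was -0.16 for Ngfr and -0.44 for Tbx1. It was 0.09 for Ntrk2 and 0.16 for Ntrk3. The share of all genes with such a difference was not taken. Which of the Bdnf starts were used is not given by the arrays. The part in the Bdnf values of whatever separates the numbers was not tested. The mutant minus control difference of Bdnf was -0.11 (interval -0.35 to 0.14) within numbers 1 to 3 and -0.07 (-0.39 to 0.25) within numbers 4 and 5.

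**Figure D1:**
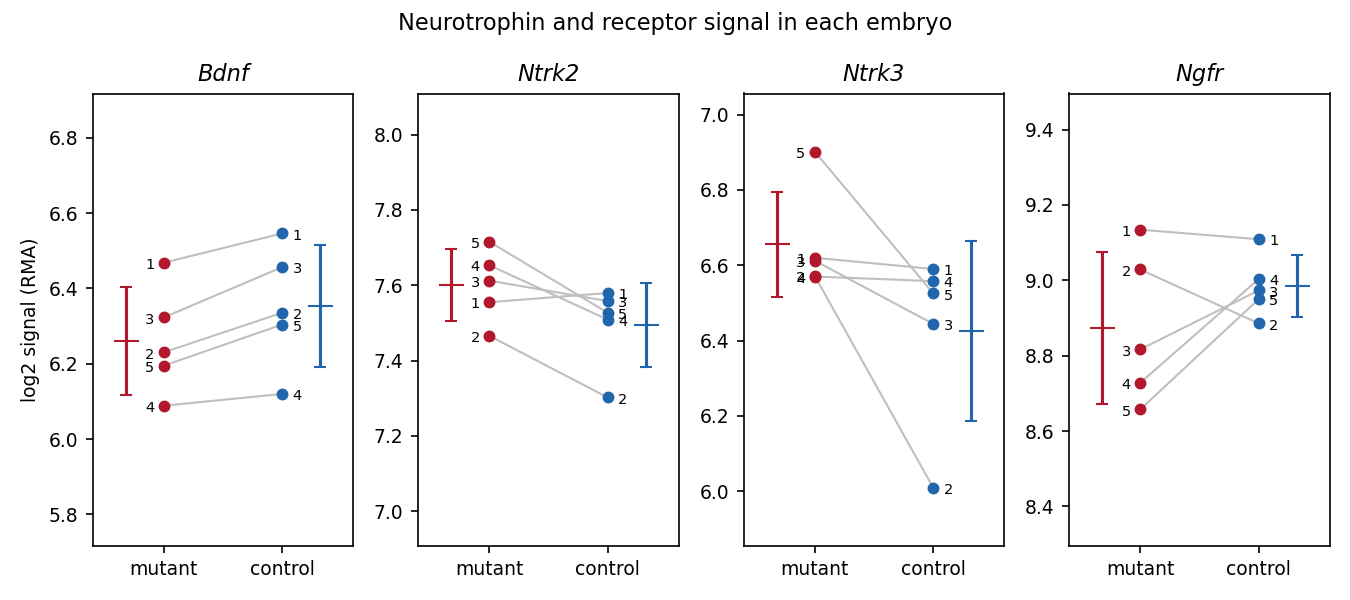
Log2 signal of Bdnf, Ntrk2, Ntrk3 and Ngfr (vertical axes, each spanning the same range) in 5 mutant embryos (red, left) and 5 control embryos (blue, right). Points are embryos with their label numbers, grey lines join the same number, and bars are mean ± SD (n = 5 each). The Bdnf lines run nearly parallel with each mutant lower, control 2 stands low for Ntrk2 (7.30) and Ntrk3 (6.01), mutant 5 stands high for Ntrk3 (6.90), and Ngfr is low in mutants 3 to 5.

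Ntrk3, the gene of the NT-3 receptor TrkC, had the widest mean difference of the 4. Its log2 signal (probe set 10564667) was 6.62, 6.57, 6.61, 6.57 and 6.90 in mutants 1 to 5, against 6.59, 6.01, 6.44, 6.56 and 6.53 in controls 1 to 5. Mutant 5 was the highest of the 10 arrays and control 2 the lowest, while the other 8 lay between 6.44 and 6.62. The means were 6.66 ± 0.14 in the mutants and 6.43 ± 0.24 in the controls (SD, n = 5 each). This is a log2 difference of 0.23 (SE 0.11, 95% interval -0.02 to 0.47), with a limma adjusted p of 0.633. With the number as a block the interval was 0.01 to 0.45. The exact two-sided permutation p for Ntrk3 alone was 0.0317, which is not adjusted for the other genes. As a fold the difference was 1.17, with an interval of 0.989 to 1.39.

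The Ntrk3 difference was smaller without those 2 arrays. It was 0.17 without mutant 5, 0.13 without control 2 and 0.06 without both (interval -0.10 to 0.23). Leaving out the highest mutant and the lowest control lowers a positive difference by itself. How far the Ntrk3 difference rests on them was therefore not tested. All 5 same-number pairs had more Ntrk3 signal in the mutant, as did 5.91% of all genes, but the paired differences ranged from 0.01 for number 4 and 0.03 for number 1 to 0.56 for number 2. In the arrays numbered 1 to 3 the difference was 0.25 (-0.06 to 0.57) and in those numbered 4 and 5 it was 0.19 (-0.18 to 0.57).

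Ntrk2, the gene of the BDNF receptor TrkB, had a smaller difference of the same sign. Its log2 signal (probe set 10405633) was 7.56, 7.47, 7.61, 7.65 and 7.72 in mutants 1 to 5, against 7.58, 7.30, 7.56, 7.51 and 7.53 in controls 1 to 5. Mutants 3, 4 and 5 lay above every control, and control 2 was again the lowest array. The means were 7.60 ± 0.10 in the mutants and 7.50 ± 0.11 in the controls (SD, n = 5 each). The gap was 0.11 in log2 (SE 0.08, 95% interval -0.06 to 0.27), the limma adjusted p was 0.726 and the exact two-sided permutation p was 0.159. The interval as a fold was 0.961 to 1.20. Without control 2 the difference was 0.06, and without mutant 5 and control 2 it was 0.03. These are again the highest mutant and the lowest control, so leaving them out lowers the difference by itself. Trk genes also give receptor forms that lack the kinase, and 1 value per gene does not separate them from the full-length forms.

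Ngfr, the p75 gene, spread more among the mutants than among the controls. Its log2 signal (probe set 10390175) was 9.13, 9.03, 8.82, 8.73 and 8.66 in mutants 1 to 5, against 9.11, 8.89, 8.97, 9.003 and 8.95 in controls 1 to 5. Mutants 3, 4 and 5 lay below every control, mutant 1 lay above every control, and mutant 2 lay among the controls. The means were 8.87 ± 0.20 in the mutants and 8.98 ± 0.08 in the controls (SD, n = 5 each), and no test of the spreads was made. Mutants minus controls gave -0.11 in log2 (SE 0.09, 95% interval -0.31 to 0.08), the limma adjusted p was 0.756 and the exact two-sided permutation p was 0.294. That left 92.6% of the control signal, with an interval of 80.8 to 106.0%.

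The Ngfr difference was not alike in the 2 sets of array numbers. In the arrays numbered 1 to 3 it was 0.0038 (interval -0.22 to 0.23), and in those numbered 4 and 5 it was -0.28 (-0.53 to -0.04), where the limma adjusted p was 0.900. Whether the 2 differences differ from each other was not tested, and the difference in numbers 4 and 5 rests on 4 arrays. Without mutant 5 the difference over all numbers was -0.06, and without mutant 1 it was -0.18.

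**Figure D2:**
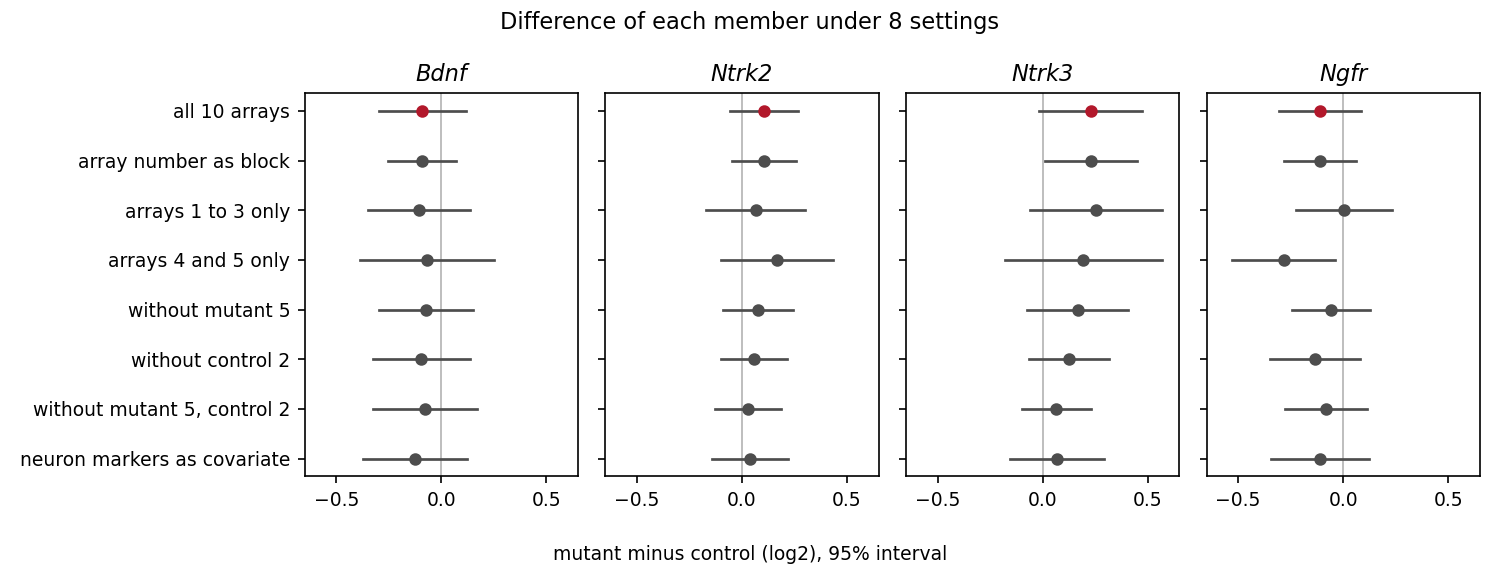
Mutant minus control difference (log2, horizontal axes) of each gene with its 95% limma interval, for all 10 arrays (red, top) and for 7 other settings (grey). Ntrk3 lies at 0.23 over all arrays and at 0.06 without mutant 5 and control 2, and Ngfr lies at -0.28 in the arrays numbered 4 and 5 and at 0.0038 in those numbered 1 to 3.

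Ntrk2 and Ntrk3 varied together among the embryos, with mutant 5 and control 2 at the ends of both. Over the 10 arrays their Pearson r was 0.88 (permutation p = 0.00405, adjusted p = 0.0729) and Spearman's rho was 0.60 (permutation p = 0.0746, adjusted p = 0.401), with adjustment over the 18 relations computed. With single arrays left out r was 0.68 to 0.93. Without the 2 arrays farthest from the median of Ntrk2, mutant 5 and control 2, r was 0.19. Taking out both ends of a range tends to lower r by itself, so how far the relation rests on those arrays was not tested. Within the 6 arrays numbered 1 to 3, which include control 2, r was 0.89 (exact permutation p = 0.0444), and the 4 arrays numbered 4 and 5 are too few for a value. Bdnf and Ngfr had r = 0.62 (permutation p = 0.0590, adjusted p = 0.226) and rho = 0.58 (permutation p = 0.0891, adjusted p = 0.401). For this pair r was 0.37 without mutant 4 and control 1 and 0.55 in the arrays numbered 1 to 3 (exact permutation p = 0.25). The other 4 pairs of genes had r between -0.42 and -0.16, and no relation passed after adjustment.

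Mutant 5 and control 2 also had the highest and the lowest mean of the sensory neuron list. The mean of its 21 measured markers, which include Neurod1, Isl1, Tubb3 and Elavl4, was 8.91, 8.74, 8.83, 8.38 and 9.32 in mutants 1 to 5, against 8.42, 7.95, 8.84, 8.51 and 8.64 in controls 1 to 5. Of these markers 20 had a higher mean in the mutants, 0 passed the threshold, and all 21 read above background in every array. Across all genes 9794 of 19938 had a higher mean in the mutants. Not all followed the mean: 14 were highest in mutant 5 and 7 elsewhere, while 17 were lowest in control 2. Among those highest in mutant 5 were genes that most neurons share, such as Tubb3 (11.95) and Ina (11.76). The neuronal bHLH genes Neurog1 (7.03), Neurod4 (6.70) and Nhlh1 (8.61) were also highest there. Isl1, a transcription factor of sensory neurons, read 8.69 in mutant 5, against 9.35, 9.18 and 9.28 in mutants 1 to 3, and Neurod1 read 7.95 there, against 8.12 in mutant 1. Mutant 5 also had the highest hindbrain and neural tube list mean, 8.24, against 7.02 to 7.35 in the other mutants and 7.02 to 7.64 in the controls, and the highest En2. Ntrk3 correlated with the marker mean at r = 0.83 (permutation p = 0.0110, adjusted p = 0.0994) and rho = 0.60 (permutation p = 0.0736, adjusted p = 0.401). Ntrk2 did so at r = 0.70 (permutation p = 0.0291, adjusted p = 0.175) and rho = 0.37 (permutation p = 0.294, adjusted p = 0.663). With single arrays left out r was 0.67 to 0.88 for Ntrk3 and 0.40 to 0.87 for Ntrk2. Without both mutant 5 and control 2, the ends of the range, the r values were -0.07 for Ntrk3 and -0.27 for Ntrk2. In the arrays numbered 1 to 3 they were 0.83 (exact permutation p = 0.0819) and 0.79 (exact permutation p = 0.0750).

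With the neuron marker mean as a covariate in limma, the mutant minus control difference was 0.07 for Ntrk3 (interval -0.16 to 0.29) and 0.04 for Ntrk2 (-0.14 to 0.22). For Bdnf it was -0.13 (-0.37 to 0.12) and for Ngfr -0.11 (-0.35 to 0.12), and no gene of the 4 passed. Bdnf and Ngfr had r = 0.0029 and -0.19 with the neuron markers over all arrays. Without mutant 5 and control 2 these were 0.40 and 0.25, and in the arrays numbered 1 to 3 they were 0.04 and 0.22. The covariate does not separate ganglion neurons from neurons of the hindbrain, and the part of either in the receptor values was not tested.

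**Figure D3:**
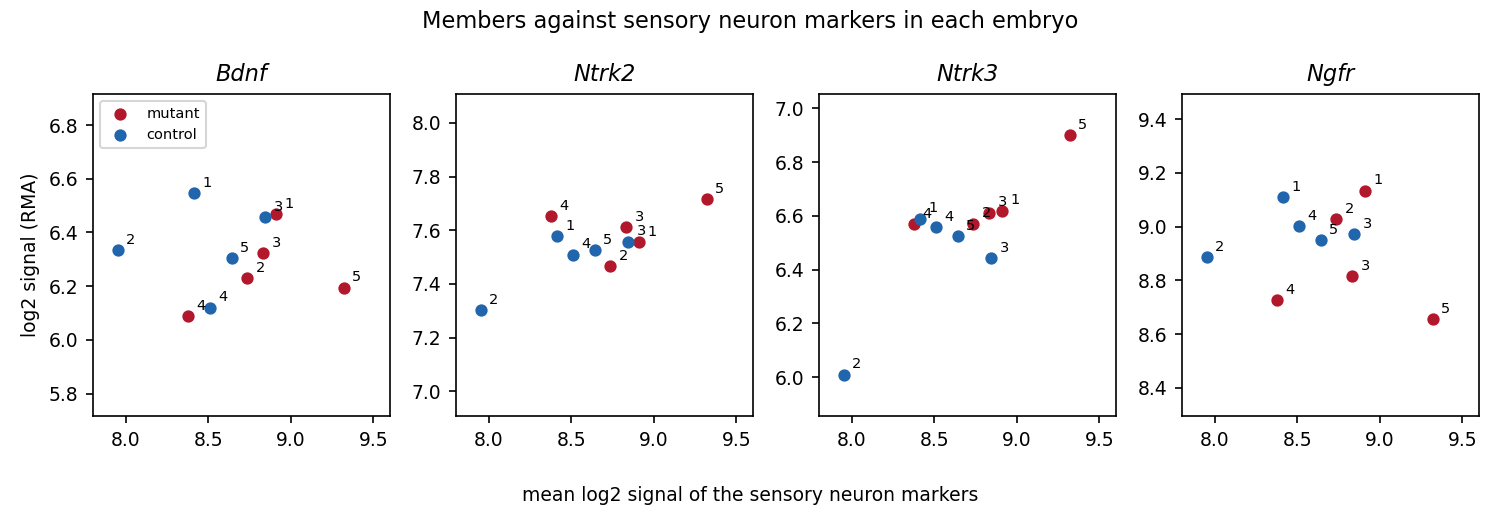
Log2 signal of each gene (vertical axes) against the mean log2 signal of the 21 sensory neuron markers (horizontal axes) in each embryo, mutants in red and controls in blue, with label numbers. Control 2 (marker mean 7.95) and mutant 5 (9.32) mark both ends for Ntrk2 and Ntrk3. Over the other 8 embryos r is -0.27 for Ntrk2, -0.07 for Ntrk3, 0.40 for Bdnf and 0.25 for Ngfr.

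Lists of other cell types were set against the genes in the same way. The Schwann cell precursor and neural crest glia list, whose 9 measured members include Sox10 and Erbb3, had means of 8.08 to 8.28 in the mutants and 7.94 to 8.19 in the controls. Its members did not move together: 4 had a higher and 5 a lower mean in the mutants, with differences of 0.65 for Fabp7, which is also on the hindbrain list, 0.38 for Ednrb, -0.13 for Sox10 and -0.13 for Erbb3, and 0 passed. Sox10 read 7.89, 8.08, 7.76, 7.73 and 7.49 in mutants 1 to 5, against 7.94, 7.88, 8.06, 7.87 and 7.82 in controls 1 to 5. Its mutants 3 to 5 lay below every control, as they did for Ngfr. No other member of the list had this order. Erbb3 read 9.33, 9.36, 9.16, 9.30 and 8.69 in mutants 1 to 5, against 9.10 to 9.56 in the controls. With the mean of the 9 list members, not with Sox10 alone, Ngfr had r = 0.33 (permutation p = 0.363, adjusted p = 0.594). That r was 0.04 without mutant 5 and control 2, and 0.29 in the arrays numbered 1 to 3. Taken on deviations from the group means it was 0.62, beside 0.50 for Ngfr with the periotic mesenchyme mean. Neither of these values was tested. Ntrk3 had r = 0.54 with the glia list mean (permutation p = 0.120, adjusted p = 0.271). For Ntrk3 it was -0.41 without control 2 alone, 0.90 without mutant 5 alone and 0.47 without both. In the arrays numbered 1 to 3 it was 0.95 (exact permutation p = 0.05). With the periotic mesenchyme mean, which was 9.80 in mutant 5, 10.15 to 10.19 in the other mutants and 10.13 to 10.26 in the controls, Ngfr had r = 0.58 (permutation p = 0.0629, adjusted p = 0.226). That r was 0.04 without mutant 5 alone, 0.20 without mutant 5 and control 2 and 0.07 in the arrays numbered 1 to 3. Ntrk3 and Ntrk2 had r = -0.68 and -0.64 with the mesenchyme mean (adjusted permutation p = 0.271 for each), 0.21 and -0.09 without the same 2 arrays, and -0.52 and -0.59 in the arrays numbered 1 to 3. Of the 14 periotic mesenchyme markers 13 had a lower mean in the mutants and 0 passed. Of the 11 skeletal myoblast markers 10 had a lower mean in the mutants and 0 passed. The myoblast markers averaged 8.14 to 8.79 in the mutants and 8.34 to 8.88 in the controls. Across all genes 10144 of 19938 had a lower mean in the mutants. The part of these cell types in the results was not tested.

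The genes most alike to each of the 4 were found by Pearson r over the 10 arrays among 15664 genes above background, so the r values are the highest of many and carry no test. Ntrk2 was most like Calb2, which encodes the neuronal calcium-binding protein calretinin (r = 0.97), then Trappc6b (0.97) and Txnl4b (0.95). Ntrk3 was most like Grik1, a kainate receptor subunit (r = 0.96), Pfkfb2, a regulator of glycolysis (0.96), and Tstd3 (0.95). The r values of these 6 genes were lower without both mutant 5 and control 2. Those arrays are the ends of the range of Ntrk2 and Ntrk3, so taking both out tends to lower r by itself. Their part in the likeness was not tested. The 6 values lay between 0.93 and 0.97 without mutant 5 and between 0.88 and 0.94 without control 2. Without both they were 0.80 to 0.89 for the 3 genes of Ntrk2, 0.88 for Grik1, 0.54 for Pfkfb2 and 0.48 for Tstd3. For Bdnf the most alike genes were Them6 (r = 0.94), the myosin gene Myo1a (0.93) and Arrdc2 (0.93). For Ngfr they were Ap1g2, an adaptor subunit of vesicle coats (r = 0.94), Nsmce1 (0.94) and Slc25a38, a mitochondrial carrier (0.94). The limma adjusted p of these 12 genes between mutants and controls was 0.588 or more.

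The rest of the pathway was read from 5 lists with 59 measured genes of 65. By limma 0 of the 59 passed in either direction, 3 had an unadjusted p under 0.05, and 2 had groups that did not overlap. Of the 59, 27 had a higher and 32 a lower mean in the mutants, with a median log2 difference of -0.0069 beside -0.0021 over all genes.

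Other ligands and receptors held 7 measured genes, 5 with a higher mean, with a median log2 difference of 0.02. Ntf5, which encodes the other TrkB ligand, read 6.22 to 6.80 in the mutants and 6.55 to 6.78 in the controls, a difference of -0.06. Smallest in p were Sorcs1 (0.16, limma adjusted p = 0.681) and Sorcs3 (0.14, adjusted p = 0.702), sortilin-family receptors. Sort1, the gene of sortilin, which binds neurotrophin precursors together with p75, had 0.04.

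Partners of p75 held 11 measured genes with a median log2 difference of 0.06. Bex3, an adaptor of the p75 cell death signal, read 11.30, 11.33, 11.17, 11.29 and 11.29 in mutants 1 to 5, against 11.34, 11.44, 11.38, 11.43 and 11.39 in controls 1 to 5. All 5 mutants lay below all 5 controls, a log2 difference of -0.12 (SE 0.04, limma adjusted p = 0.575). Aph1a, a subunit of the gamma-secretase that cleaves p75, had -0.15 (adjusted p = 0.612), with groups that overlapped. Maged1, which binds p75, had 0.06, and Kidins220, a scaffold of Trk and p75, had 0.20.

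Trk adaptors and effectors held 22 measured genes with a median log2 difference of -0.02, 7 of them with a higher mean. Sos1, the exchange factor that activates Ras below Trk, had 0.11 (limma adjusted p = 0.675), and Shc1, an adaptor that docks on Trk, had -0.18 (adjusted p = 0.687). Plcg1, the phospholipase that Trk phosphorylates, had -0.04. Processing and release held 9 measured genes with a median of 0.0098. Scg2, a granin of secretory granules, had 0.38 (adjusted p = 0.626) and Furin, a convertase that cuts neurotrophin precursors, -0.12 (adjusted p = 0.744).

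The GDNF family, a separate group of trophic factors for neurons, held 10 measured genes with a median log2 difference of -0.03. Ncam1, a cell adhesion molecule that also serves as a GDNF receptor, read 10.33, 10.33, 10.34, 10.37 and 10.81 in mutants 1 to 5, against 10.07, 10.10, 10.02, 10.21 and 10.21 in controls 1 to 5. All 5 mutants lay above all 5 controls, with a log2 difference of 0.32 (SE 0.09, limma adjusted p = 0.569). Gfra4, a GDNF family co-receptor, had -0.11 (adjusted p = 0.708), and Ret, the signalling receptor of the family, had -0.12. Bex3 and Ncam1 were the 2 of the 59 genes without overlap, and 1.83% of all genes had none.

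**Figure D4:**
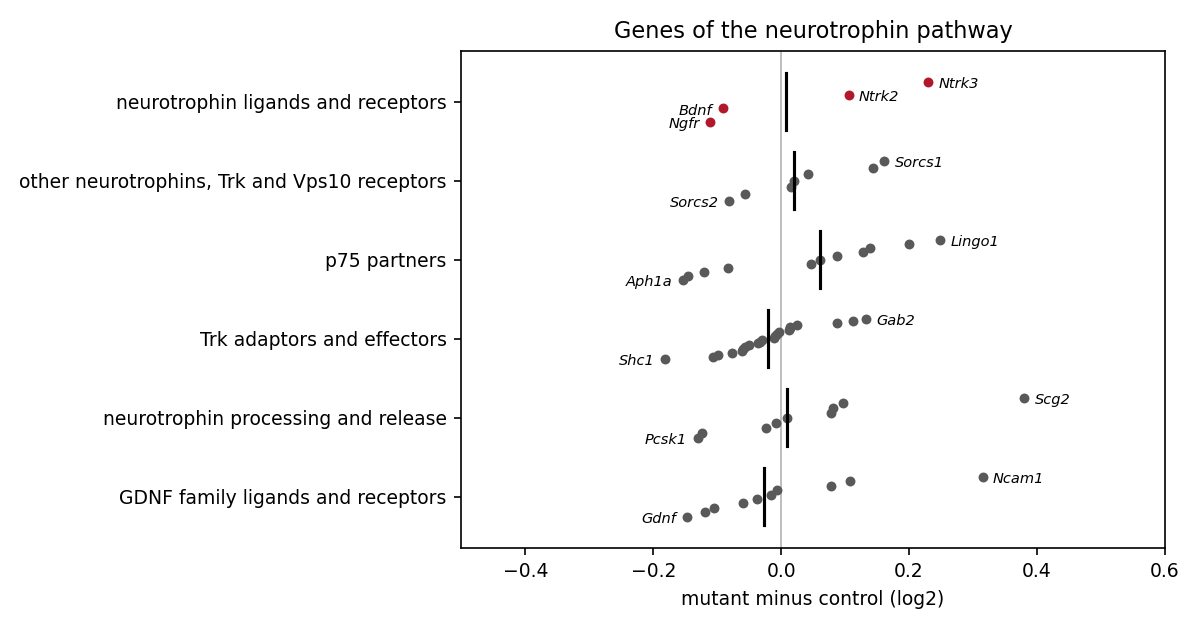
Mutant minus control difference (log2, horizontal axis) of the 4 genes (red, top) and of the 59 further genes of the pathway by list (grey). Each point is 1 gene, black bars are list medians, and the names mark the 4 genes and the ends of each list. Differences run from -0.18 for Shc1 to 0.38 for Scg2, and 0 of the points passed the threshold.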

How the data were processed

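RNA of 10 embryos (5 mutants, 5 controls; 300 ng of total RNA per array, per the labels) was measured on single arrays. The deposited values are log2 signals. The submitters' processing notes name RMA and Affymetrix Expression Console 1.1 as the authors' tools. The log2 scale was read from the values. RMA corrects background, sets arrays to 1 distribution and summarises probes.

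Of 35557 probe sets, 21789 had 1 symbol in the platform annotation, 1621 had several and 12147 were not listed. Identifiers matched 21698 to RefSeq names. Each gene was read from its probe set of highest mean.

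Tests between groups used limma 3.58.1 under R 4.3.3 (mean-variance trend, two-sided), adjusted over 21789 probe sets at a threshold of 0.05, and single values by exact permutation of all 252 splits, whose smallest p is 0.00794. Correlations used 100000 permutations. The fit was tested on simulated data for this comparison over 21789 probe sets: it recovered 82 of 100 changes of 0.5 and 96 of 100 of 1, with 16 false calls among 194. The simulated noise was normal and independent between probe sets, and 200 changes were planted, so these counts do not give the recovery in the real arrays. There Tbx1, with a log2 difference of -0.88, had a limma adjusted p of 0.451. Deviations from group means correlated at 0.11 to 0.236 between same-numbered arrays and at -0.382 to 0.385 between others, so the ranges overlapped. The main tests above leave the number out, and the fit with it as a block is an alternative. What same-numbered embryos have in common is not stated, and for 3 of 5 mutants the best match was the control of that number.

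The genes and lists were chosen with earlier results of these data known. Named were the 4 measured genes, the 2 genes of smallest p in each pathway list, the 3 most alike genes, Tbx1, Fos and sex-linked genes. Other pathway genes (Ntf5, Sort1, Maged1, Kidins220, Plcg1, Ret) and En2 were added for their roles after values were seen. Alternatives were other variance settings, array weights, covariates, normalization, a filter and left-out arrays.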

Additional observations from a re-analysis of the deposited data

Results flagged for a closer look

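Dixon's rule at the 95% level marked 13 values as far from the rest of their group, in 70 groups of 5 values, where chance gives about 4. The genes tested include those chosen as most alike to Ntrk2 and Ntrk3, so these marks are not independent. Of the 13, 6 lay in control 2 and 5 in mutant 5.

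In control 2 the low values were Ntrk3 at 6.01 (other controls 6.44 to 6.59), Ntrk2 at 7.302 (others 7.51 to 7.58), Calb2 at 5.32, Pfkfb2 at 6.853, Tstd3 at 7.444 and Txnl4b at 6.984. In mutant 5 the marked values were Ntrk3 at 6.902 (other mutants 6.57 to 6.62), Ncam1 at 10.81, Pfkfb2 at 7.509, the hindbrain and neural tube list mean at 8.245 (others 7.02 to 7.35) and the periotic mesenchyme list mean at 9.796 (others 10.15 to 10.19). The other marks were Bex3 in mutant 3 at 11.17 (others 11.29 to 11.33) and the blood vessel endothelium list mean in control 1 at 8.833 (others 8.60 to 8.65).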

How the results depend on the processing

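Over 23 alternatives each, the log2 difference ran from -0.15 to -0.04 for Bdnf, from 0.03 to 0.17 for Ntrk2, from 0.06 to 0.27 for Ntrk3 and from -0.28 to 0.0038 for Ngfr. No setting brought any of the 4 past the limma threshold (lowest adjusted p 0.476, for Ntrk3 with the replicate block). The sign turned once, for Ngfr in only the arrays numbered 1 to 3 (0.0038). With single arrays left out the ranges were -0.15 to -0.04 for Bdnf, 0.06 to 0.14 for Ntrk2, 0.13 to 0.27 for Ntrk3 and -0.18 to -0.06 for Ngfr. Bdnf was -0.14 without mutant 1, -0.05 without mutant 4, -0.04 without control 1 and -0.15 without control 4, -0.06 with sex as a covariate and -0.05 with array weights, which gave -0.06 for Ngfr; the cause was not tested. The genes past the threshold, 2 over all arrays, numbered 1 with probe sets above background in at least 5 arrays (17212 genes tested), 1 in only the arrays numbered 1 to 3 and 0 in only those numbered 4 and 5, where limma had 808 at an unadjusted p under 0.05 and fewer arrays enter. The replicate block, with the number as a term, changed no adjusted call, while Ntrk3 passed 0.05 unadjusted (0.0421): adjusted p was 0.695 for Bdnf, 0.630 for Ntrk2, 0.476 for Ntrk3 and 0.65 for Ngfr, and 2 genes passed over all. The pathway lists had 0 genes past the threshold in every alternative, and 5 of 115 list medians moved by more than the spread between arrays. Of the 18 correlations 12 turned sign in at least 1 of 13 alternatives, 4 of them among the 8 with r of at least 0.5 in size: Ntrk2 and Ntrk3 with the neuron list and Ntrk3 with the mesenchyme list without mutant 5 and control 2, and Ntrk3 with the glia list without control 2. The alternatives without mutant 5 and control 4 or control 2 were chosen after seeing the data. No gene of the 4 has a second probe set, so their mean was not run. The number of arrays limits the precision, and arrays have no read depth.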
